A study of Homo sapiens with 60 samples.

Results

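The genes described here encode 37 coagulation and complement proteins that the liver secretes into plasma, among 60675 genes measured. They were chosen by name as liver-made members of both cascades, each matched 1 Ensembl gene in the deposited table, and 35 passed the filter on low counts. The 60 libraries are mRNA of HepG2, an established human liver cancer line that keeps much of the secretory programme of hepatocytes, after 24 h of treatment. The single-herb groups were water extracts of Aconiti Lateralis Radix Preparata, Bupleuri Radix, Cimicifugae Rhizoma and Citri Unshius Pericarpium, and the formula groups were water extracts of Yijung-tang and Banhasasim-tang. Each was given at 20, 100 or 500 µg/mL in 3 libraries for each dose. Bojungikgi-tang, a further formula, had 1 library per dose and is described without a test. The vehicle group, labelled 0.1% DMSO, had 3 libraries. Nothing in the labels tells if replicates came from separate cultures; p-values therefore cover only the spread among these libraries, which may be technical.

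Coagulation runs as a cascade of serine proteases. Contact factors and the vitamin K-dependent factors lead to thrombin, which makes fibrin, while antithrombin, tissue factor pathway inhibitor and the protein C system hold the cascade back and plasmin dissolves the clot. Complement is a related cascade in which the classical, lectin and alternative routes meet at C3, continue to C5 and end in the pore formed by C5b with the later components. Hepatocytes are the main source of most of these plasma proteins.

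Total expected counts ran from 17598646 to 30451640 per library. The hepatocyte marker list was high throughout, with ALB at 9886 CPM (counts scaled to TMM-adjusted library size) in vehicle, and 12 of its 13 genes passed the filter, all except CYP3A4. The endothelial markers summed to between 4.49 and 8.53 CPM in vehicle, and the endothelial gene KDR and the macrophage gene C1QC were at 0 in all 60 libraries. Vehicle replicate 2 stood apart: PTPRC, the leukocyte antigen CD45, was at 0, 6.93 and 0 CPM in vehicle replicates 1, 2 and 3. THBD, an endothelial marker, was at 0, 1.37 and 0 CPM in the same order. In the extract libraries PTPRC did not pass 0.0455 CPM, so results against vehicle are given below with and without that library. In bulk RNA, fewer cells of a type and less RNA per cell cannot be told apart.

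Promoter windows are shown for some of the members that moved furthest or in most extracts. Each has 300 bases, from 250 before to 50 after the start site, from RefSeq on GRCh38.p14. Of the 37 members, 30 had such windows, 37 windows in all because some genes have several start sites, and SERPINF2, C1S, SERPINC1, C4B, C8G, C3 and A2M had none. The windows are KNG1 at chr3:186717109-186717408 (plus strand), C8A at chr1:56854547-56854846 (plus strand), C5 at chr9:121050226-121050525 (minus strand), C4BPA at chr1:207103983-207104282 (plus strand), MASP1 at chr3:187291688-187291987 (minus strand) and TFPI at chr2:187554386-187554685 (minus strand). Capitals mark letter matches on either strand to motifs of factors active in hepatocytes: HNF4 (CAAAGNNCA), HNF1 (GTTAATNAT) and forkhead proteins such as FOXA (TGTTTAC).
KNG1: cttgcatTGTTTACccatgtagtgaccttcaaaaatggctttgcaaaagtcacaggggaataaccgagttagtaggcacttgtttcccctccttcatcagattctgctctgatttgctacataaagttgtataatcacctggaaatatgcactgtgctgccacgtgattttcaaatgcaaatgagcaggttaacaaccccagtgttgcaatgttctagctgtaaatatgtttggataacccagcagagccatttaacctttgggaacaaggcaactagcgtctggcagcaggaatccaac
C8A: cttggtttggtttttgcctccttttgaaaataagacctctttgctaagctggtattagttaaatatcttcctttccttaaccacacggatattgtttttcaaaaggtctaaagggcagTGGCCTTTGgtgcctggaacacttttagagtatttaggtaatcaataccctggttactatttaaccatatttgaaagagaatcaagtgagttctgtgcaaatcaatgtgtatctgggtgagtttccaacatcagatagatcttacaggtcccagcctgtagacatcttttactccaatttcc
C5: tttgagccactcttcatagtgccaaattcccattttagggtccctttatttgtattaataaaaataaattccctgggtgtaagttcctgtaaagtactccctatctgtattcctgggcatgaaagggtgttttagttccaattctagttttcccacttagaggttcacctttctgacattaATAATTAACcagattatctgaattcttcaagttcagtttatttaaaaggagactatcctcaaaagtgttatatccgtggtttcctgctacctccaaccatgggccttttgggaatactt
C4BPA: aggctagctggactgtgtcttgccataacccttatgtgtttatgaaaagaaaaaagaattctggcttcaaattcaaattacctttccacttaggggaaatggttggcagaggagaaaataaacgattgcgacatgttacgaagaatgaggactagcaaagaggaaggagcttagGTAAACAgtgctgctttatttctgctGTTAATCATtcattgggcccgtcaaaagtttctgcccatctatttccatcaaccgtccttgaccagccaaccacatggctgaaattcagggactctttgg
MASP1: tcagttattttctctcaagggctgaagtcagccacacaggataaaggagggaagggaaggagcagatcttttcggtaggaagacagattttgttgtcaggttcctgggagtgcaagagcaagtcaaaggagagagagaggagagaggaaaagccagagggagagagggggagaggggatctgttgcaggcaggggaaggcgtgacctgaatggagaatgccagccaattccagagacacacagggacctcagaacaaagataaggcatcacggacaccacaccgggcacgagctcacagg
TFPI: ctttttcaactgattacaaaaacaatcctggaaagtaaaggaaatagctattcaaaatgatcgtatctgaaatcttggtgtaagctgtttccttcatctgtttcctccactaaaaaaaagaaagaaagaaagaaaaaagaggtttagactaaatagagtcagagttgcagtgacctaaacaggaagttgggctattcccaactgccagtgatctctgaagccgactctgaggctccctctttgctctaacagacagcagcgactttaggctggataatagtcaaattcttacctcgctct
In these windows the forkhead letters began at position -243 from the KNG1 start site and at -76 in C4BPA, the HNF4 letters at -132 in C8A, and the HNF1 letters at -69 in C5 and -50 in C4BPA, with no overlap between matches. MASP1 and TFPI held none of the 3. Windows of other members that moved in many extracts are not shown. CFI, which fell in 5 extracts, and CFB and SERPINA5, which fell in 4, held none of the 3 motifs. PROS1, which also fell in 4, held the forkhead letters. A match is a description of letters and not a site of binding.

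Over all 37 member windows, the HNF1 letters were in 5 (13.5%), belonging to C4BPA, C5, F13B and PLG, against 0.792% of 35116 windows of the same length. The forkhead letters were in 6 member windows (16.2%) against 3.42% of all, in C4BPA, C4BPB, C8B, KNG1 and PROS1. The HNF4 letters were in 5 (13.5%) against 5.28% of all, in C8A, F10, F9, PROZ and SERPIND1. The letters TGACNNNGC of the NRF2 motif were in 3 member windows (8.11%) against 13.3% of all. No member window held TTGCGTG (the aryl hydrocarbon receptor, 1.16% of all). The letters TTGCNNCAA were also in none (1.98% of all). They were searched for C/EBP but are spaced wider than its usual site, so they give no result about C/EBP.

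Levels between genes were compared per kilobase of the longest coding transcript, on the scale of CPM per kilobase in vehicle. A2M, which encodes the broad protease trap alpha-2-macroglobulin, was the highest at 733 ± 31.6 (SD, n = 3), followed by C3 at 327 ± 12.5. SERPINA5 (protein C inhibitor) at 160 ± 7.17 and SERPINF2 (the plasmin inhibitor alpha-2-antiplasmin) at 159 ± 6.85 did not differ beyond their spread. Prothrombin (F2) stood at 106 ± 1.88. At the other end were PLG (plasminogen) at 0.349 ± 0.0734 and KLKB1 (plasma prekallikrein) at 0.120 ± 0.0800. F9, coagulation factor IX, had no count in 57 of 60 libraries and C9 none in 59, with a highest count of 1 in each, and neither was tested. The members together made up 0.828% ± 0.029 of counts in vehicle and 0.691% ± 0.0097 in Aconiti Lateralis Radix Preparata at 500 µg/mL, the lowest group, and A2M with C3 gave 63.7% of member counts in vehicle.

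**Figure D1:**
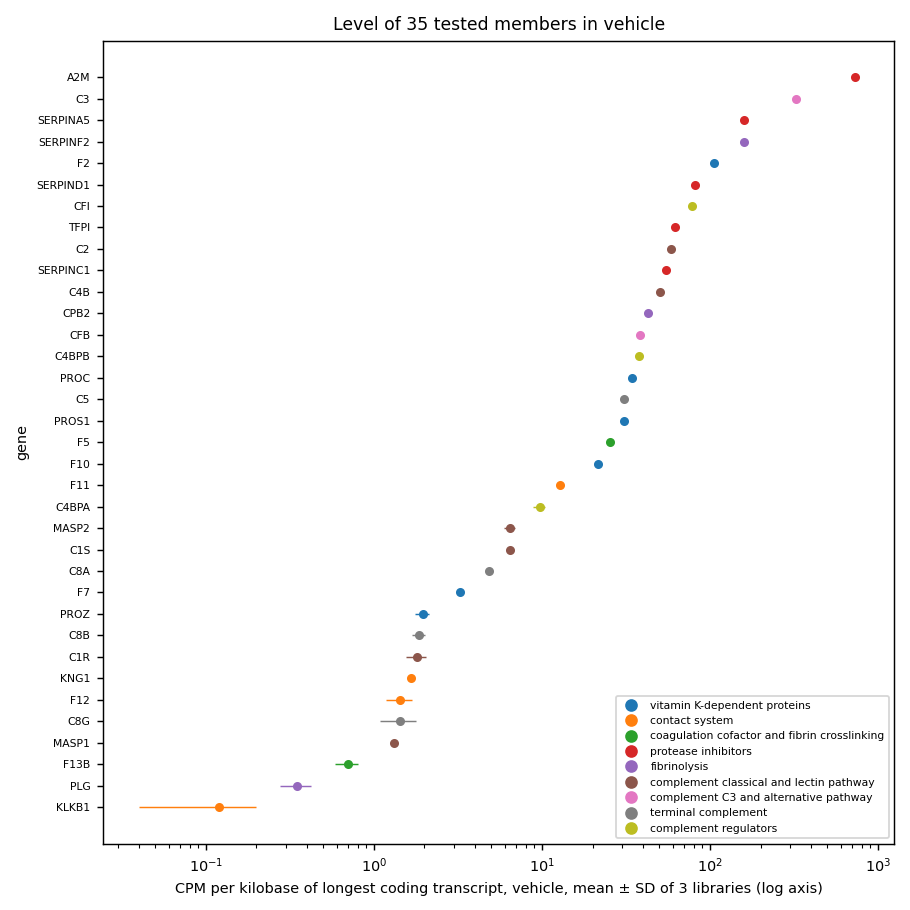
Level of each of the 35 tested members in vehicle, in CPM per kilobase on a log axis, as the mean with SD of 3 libraries and coloured by role. A2M lies at 733 and KLKB1 at 0.120.

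The main question was how the level of each member at 500 µg/mL compared with that at 20 µg/mL of the same extract, since these libraries share a set code in their titles. More members fell than rose in every one of the 6 extracts. Of 35 tested members, 22 fell and 3 rose in Aconiti Lateralis Radix Preparata, while 18.1% of all genes tested fell and 19.2% rose. In Banhasasim-tang 16 fell and 2 rose, against 6.52% and 8.59% of all genes. In Cimicifugae Rhizoma 13 fell and 4 rose, against 19.7% and 19.5%, so that a larger share of members than of all genes fell.

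In Citri Unshius Pericarpium 9 members fell and 0 rose in edgeR's test, against 0.92% and 0.727% of all genes, and 0 of the 35 were higher at an unadjusted p under 0.05. In Bupleuri Radix 8 fell and 3 rose, against 8.89% and 9.9%. In Yijung-tang 2 fell and 1 rose, against 2.12% and 1.65%, and the calls there numbered 0 with only its own libraries modelled, 1 without replicate 2 at 500 µg/mL and 2 without replicate 1 at 500 µg/mL or replicate 1 or 3 at 20 µg/mL. The median log2 fold change of the 35 members was -0.26 in Aconiti Lateralis Radix Preparata, -0.14 in Banhasasim-tang, -0.11 in Citri Unshius Pericarpium, -0.09 in both Cimicifugae Rhizoma and Bupleuri Radix and -0.03 in Yijung-tang, where the median of all genes was 0.00 in each. Calls are edgeR quasi-likelihood tests at an adjusted p (Benjamini-Hochberg over 16093 genes) under 0.05.

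Across extracts, C5 fell in 6 of 6, as did 0.087% of all genes, and KNG1, C4BPA and CFI fell in 5, where 0.323% of all genes fell in 5 or more. C8A, CFB, PROS1, SERPINA5, SERPINC1 and SERPINF2 fell in 4, against 3.15% of all genes in 4 or more. MASP1 and TFPI rose in 4 and fell in none, and 4.66% of all genes rose in 4 or more. SERPINC1 was the only member that fell in some extracts and rose in another. F2, F10, F12, PROC, PROZ and PLG were called in none of the 6 dose comparisons. In 82 of the 83 calls the 3 libraries at 500 µg/mL did not overlap the 3 at 20 µg/mL. The exception was C5 in Banhasasim-tang. These calls were selected by a test on the same libraries, and no such share is given for all called genes. The count therefore stands without a background and is not further evidence about the members.

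**Figure D2:**
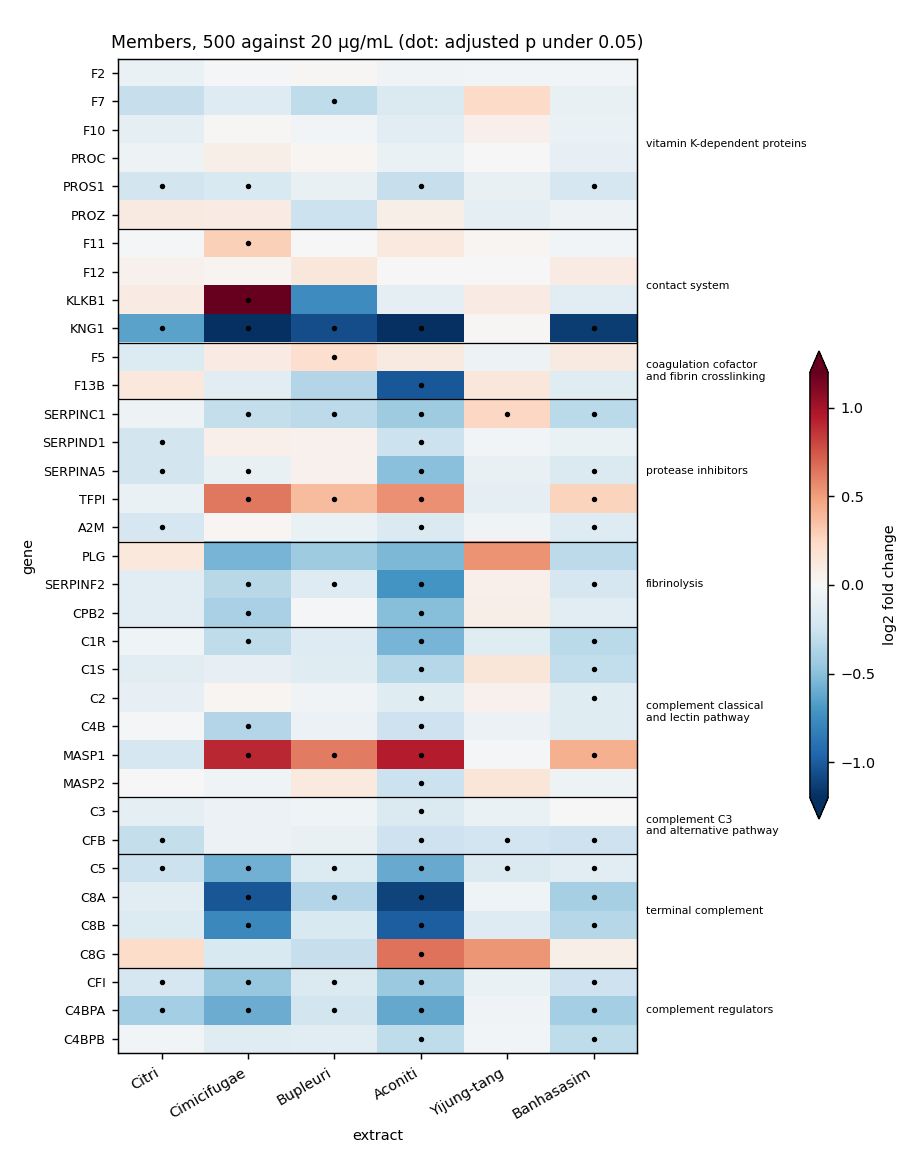
Log2 fold change of the 35 tested members, 500 against 20 µg/mL, in 6 extracts, grouped by role; blue is lower and red higher at 500 µg/mL, the colours saturate at 1.2 in either direction and a dot marks an adjusted p under 0.05. KNG1 is blue in 5 columns, and MASP1 and TFPI are red in 4.

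Among the vitamin K-dependent proteins, 6 of 7 could be tested, and prothrombin (F2), factor X (F10), protein C (PROC) and protein Z (PROZ) passed the test in no extract. The F2 fold changes lay between -0.08 and 0.02 on the log2 scale, with standard errors of 0.04. PROS1, which encodes protein S, the cofactor of activated protein C, fell by 0.27 ± 0.04 (SE) in Aconiti Lateralis Radix Preparata (adjusted p = 1.49e-06). It also fell by 0.22 in Citri Unshius Pericarpium, 0.21 in Banhasasim-tang and 0.19 in Cimicifugae Rhizoma. F7, factor VII, the partner of tissue factor, fell only in Bupleuri Radix among the 6 extracts, by 0.30 ± 0.08 (adjusted p = 0.00533), a call lost without replicate 3 at 20 µg/mL (-0.23, adjusted p = 0.0806). Whether F7 differs between Bupleuri Radix and Aconiti Lateralis Radix Preparata was tested and not called (adjusted p = 0.585).

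In the contact system, KNG1 was the member that moved furthest of all. It encodes high and low molecular weight kininogen, the cofactor of prekallikrein and factor XI and the source of bradykinin. In Aconiti Lateralis Radix Preparata its 3 libraries at 20 µg/mL were at 6.497, 6.02 and 6.34 CPM, at 100 µg/mL at 4.56, 4.11 and 4.64 CPM, and at 500 µg/mL at 1.44, 1.29 and 1.46 CPM. The 3 doses did not overlap, and the fall from 20 to 500 µg/mL was 2.16 ± 0.11 (SE) on the log2 scale (adjusted p = 2.22e-21).

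In Cimicifugae Rhizoma KNG1 was at 7.16, 7.07 and 6.33 CPM at 20 µg/mL and at 2.20, 2.60 and 2.38 CPM at 500 µg/mL, a fall of 1.52 ± 0.11 (adjusted p = 7.47e-17). In Banhasasim-tang the values were 6.96, 6.61 and 6.62 CPM at 20 µg/mL and 3.06, 3.08 and 3.01 CPM at 500 µg/mL, a fall of 1.14 ± 0.09 (adjusted p = 1.74e-13). In Bupleuri Radix they were 7.17, 6.78 and 6.52 CPM against 3.36, 2.94 and 3.45 CPM, a fall of 1.07 ± 0.09 (adjusted p = 8.89e-13). In all of these the high-dose libraries lay far below every low-dose library. Citri Unshius Pericarpium, at 8.22, 7.18 and 6.26 CPM against 4.97, 4.38 and 4.51 CPM, gave a smaller fall of 0.64 ± 0.09 (adjusted p = 7.3e-06), again with no overlap.

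In Yijung-tang KNG1 was at 6.10, 6.25 and 6.32 CPM at 500 µg/mL, inside the range of 5.57 to 6.64 CPM at 20 µg/mL, with a log2 fold change of 0.01 ± 0.09 (adjusted p = 0.977). In the single Bojungikgi-tang libraries KNG1 was at 7.28 CPM at 20 µg/mL and 4.36 CPM at 500 µg/mL, the lowest ratio of any member there. The forkhead letters in the KNG1 window shown above are a property of the sequence and were not tested against these values. F11, the factor XI protease, rose in Cimicifugae Rhizoma by 0.29 ± 0.06 (adjusted p = 4.53e-05). KLKB1 rose there by 1.25 ± 0.44 (adjusted p = 0.0207), from 0.122, 0.224 and 0.207 CPM to 0.430, 0.520 and 0.378 CPM. That is few reads, with at most 14 counts in any library, and the call was lost without replicate 1 at 20 µg/mL (1.02, adjusted p = 0.105), without replicate 2 at 500 µg/mL (1.12, adjusted p = 0.0846) and under DESeq2 (1.27, adjusted p = 0.0679), as it was with no filter (1.24, adjusted p = 0.105). F12, factor XII, passed the test in no extract, with log2 values from 0.00 to 0.14.

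**Figure D3:**
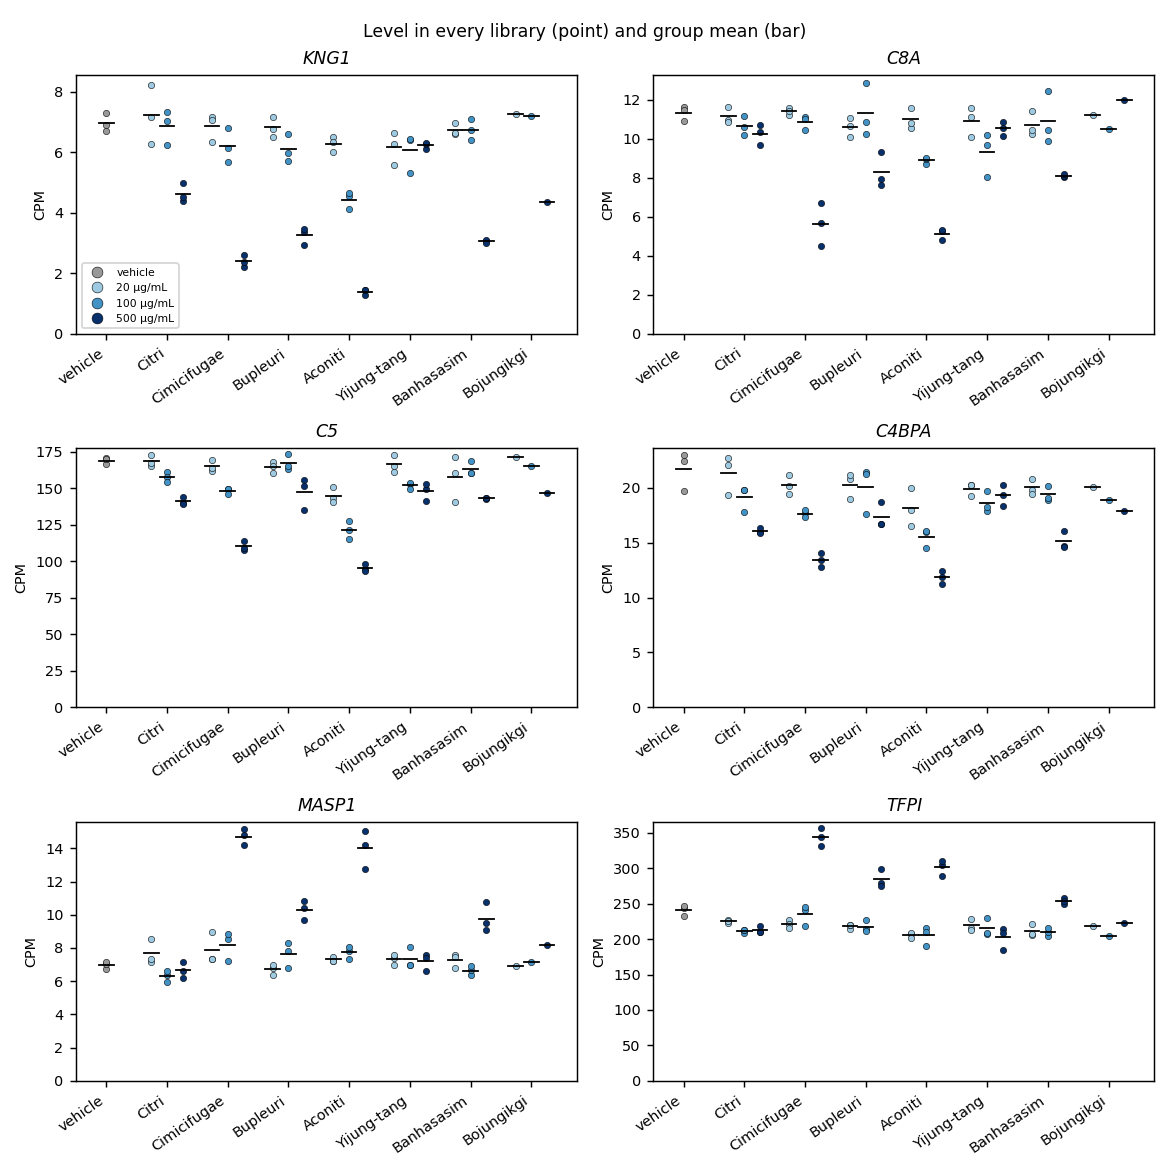
Level in CPM of 6 members in each of the 60 libraries (points) with the group mean (bar), by extract and dose; grey points are vehicle and Bojungikgi-tang has 1 library per dose. The dark 500 µg/mL points of KNG1 reach down to 1.29 CPM in Aconiti Lateralis Radix Preparata, and those of MASP1 lie above the other doses in 4 extracts.

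F5, the factor V cofactor of factor Xa, rose in Bupleuri Radix by 0.20 ± 0.07 (adjusted p = 0.0379) from 179, 174 and 164 CPM to 203, 204 and 188 CPM. The call was lost without replicate 1 or 2 at 500 µg/mL (0.185 and 0.177, adjusted p = 0.123 and 0.143) and without replicate 2 or 3 at 20 µg/mL (0.21 and 0.17, adjusted p = 0.0727 and 0.174). F13B, the carrier subunit of the fibrin-crosslinking factor XIII, fell in Aconiti Lateralis Radix Preparata by 1.02 ± 0.22 (adjusted p = 0.000215), from 1.63 ± 0.160 to 0.804 ± 0.0932 CPM (SD, n = 3).

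The protease inhibitors did not move as a block. TFPI, which blocks the tissue factor and factor VIIa complex, was at 227, 221 and 216 CPM in Cimicifugae Rhizoma at 20 µg/mL and at 357, 331 and 344 CPM at 500 µg/mL. It rose by 0.64 ± 0.05 (SE) on the log2 scale (adjusted p = 9.81e-16), with every high-dose library above every low-dose one. In Aconiti Lateralis Radix Preparata TFPI rose by 0.55 ± 0.05 (adjusted p = 1.49e-13), from 208, 209 and 202 to 305, 310.0 and 289 CPM. In Bupleuri Radix it rose by 0.38 ± 0.05 (adjusted p = 1.2e-08), from 214.7, 220.0 and 219.8 to 279.9, 299 and 275 CPM. In Banhasasim-tang it rose by 0.26 ± 0.05 (adjusted p = 4.34e-05), from 205, 207 and 222 to 249.7, 259 and 254 CPM. In that extract the level at 500 µg/mL was not called against vehicle, which was at 244, 233 and 247 CPM (log2 difference 0.07, adjusted p = 0.231, and 0.05, adjusted p = 0.571, without vehicle replicate 2). With the GC trend removed that difference was called (0.22, adjusted p = 7.08e-06). TFPI transcripts of different forms are counted together.

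SERPINC1, antithrombin, the main inhibitor of thrombin and factor Xa, fell by 0.42 ± 0.06 in Aconiti Lateralis Radix Preparata (adjusted p = 1.72e-08), by 0.32 in both Bupleuri Radix and Banhasasim-tang and by 0.28 in Cimicifugae Rhizoma. In Banhasasim-tang it went from 84.9, 87.5 and 83.0 CPM to 66.7, 69.7 and 68.2 CPM. In Yijung-tang it went the other way, from 75.2, 79.3 and 80.03 CPM to 91.85, 99.96 and 87.3 CPM, a rise of 0.25 ± 0.05 (adjusted p = 0.00259). That rise was lost without replicate 2 at 500 µg/mL (0.19, adjusted p = 0.0663) and when the model held only the 6 compared libraries (0.25, adjusted p = 0.104). Against vehicle the Yijung-tang level at 500 µg/mL stood at 0.09 (adjusted p = 0.239), at 0.06 without vehicle replicate 2 (adjusted p = 0.523) and, called, at 0.17 with the GC trend removed (adjusted p = 0.036).

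SERPINA5, protein C inhibitor, fell by 0.50 ± 0.04 in Aconiti Lateralis Radix Preparata (adjusted p = 5.08e-16), from 302, 317 and 315 CPM through 246, 248 and 251 CPM at 100 µg/mL to 218, 217 and 224 CPM. It also fell by 0.22 in Citri Unshius Pericarpium and 0.18 in Banhasasim-tang. Its fall of 0.09 in Cimicifugae Rhizoma (adjusted p = 0.0465) was lost when any of 4 libraries was left out: replicate 1, 2 or 3 at 20 µg/mL (-0.09 in each, adjusted p = 0.0867, 0.104 and 0.0881) or replicate 3 at 500 µg/mL (-0.06, adjusted p = 0.285). SERPIND1, heparin cofactor II, fell by 0.26 in Aconiti Lateralis Radix Preparata and 0.22 in Citri Unshius Pericarpium. A2M, the most abundant member, fell by 0.20 in Citri Unshius Pericarpium, 0.17 in Aconiti Lateralis Radix Preparata and 0.16 in Banhasasim-tang.

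In the fibrinolysis group, plasminogen (PLG) was called in no extract, with log2 values from -0.56 to 0.53 and standard errors of 0.25 to 0.27. SERPINF2, alpha-2-antiplasmin, was at 353, 394 and 382 CPM in Aconiti Lateralis Radix Preparata at 20 µg/mL and at 232, 226 and 229 CPM at 500 µg/mL, with no overlap. The fall was 0.72 ± 0.05 (adjusted p = 7.67e-18). It fell by 0.34 in Cimicifugae Rhizoma, by 0.20 in Banhasasim-tang and by 0.15 in Bupleuri Radix, where the call was lost without replicate 1 at 500 µg/mL or replicate 3 at 20 µg/mL (-0.11 in both, adjusted p = 0.161 and 0.157). CPB2, the carboxypeptidase TAFI that slows clot lysis, fell by 0.51 ± 0.05 in Aconiti Lateralis Radix Preparata (adjusted p = 3.46e-11), from 63.7 ± 1.66 to 44.6 ± 1.09 CPM (SD, n = 3), and by 0.39 in Cimicifugae Rhizoma.

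In the classical and lectin routes of complement, MASP1 rose in 4 extracts. The gene encodes a protease that starts the lectin route and further products from the same locus, which the counts do not separate. In Cimicifugae Rhizoma it was at 7.36, 8.95 and 7.33 CPM at 20 µg/mL and 14.2, 15.2 and 14.8 CPM at 500 µg/mL, a rise of 0.90 ± 0.08 (adjusted p = 7.49e-13). In Aconiti Lateralis Radix Preparata it was at 7.45, 7.24 and 7.23 CPM and then 14.2, 12.7 and 15.0 CPM, a rise of 0.94 ± 0.08 (adjusted p = 1.45e-13). The high-dose libraries of both extracts lay well above every other dose. In Bupleuri Radix the values were 6.39, 6.78 and 6.99 CPM and then 10.8, 9.68 and 10.4 CPM, a rise of 0.62 ± 0.08 (adjusted p = 1.15e-07). In Banhasasim-tang they were 7.60, 7.44 and 6.80 CPM and then 9.07, 9.48 and 10.8 CPM, a rise of 0.43 ± 0.08 (adjusted p = 0.000149).

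MASP2, the lectin route protease that cleaves C4 and C2, fell in Aconiti Lateralis Radix Preparata by 0.26 ± 0.07 (adjusted p = 0.00188). C1R and C1S, the proteases of the C1 complex, fell by 0.55 and 0.34 there, and C1S by 0.30 in Banhasasim-tang. The falls of C1R in Cimicifugae Rhizoma (-0.31, adjusted p = 0.0477) and in Banhasasim-tang (-0.32, adjusted p = 0.0498) were lost under DESeq2 (adjusted p = 0.0896 and 0.0783) and with no filter (adjusted p = 0.132 and 0.144). In Cimicifugae Rhizoma the call was also lost without replicate 1 or 3 at 500 µg/mL (-0.28 and -0.29) and without replicate 1, 2 or 3 at 20 µg/mL (-0.29, -0.32 and -0.31), with adjusted p from 0.0704 to 0.134. In Banhasasim-tang it was lost without replicate 1, 2 or 3 at 500 µg/mL (-0.34, -0.31 and -0.32) and without replicate 1 or 3 at 20 µg/mL (-0.32 and -0.24), with adjusted p from 0.0874 to 0.239.

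C2 fell by 0.14 in Aconiti Lateralis Radix Preparata and by 0.15 in Banhasasim-tang, where the call was lost without replicate 1 at 500 µg/mL (-0.12, adjusted p = 0.0688). C4B fell by 0.35 ± 0.06 in Cimicifugae Rhizoma (adjusted p = 1.3e-06) and by 0.25 in Aconiti Lateralis Radix Preparata. C4B is nearly identical to its neighbour C4A, so the division of reads between them is uncertain; C4A fell by 0.30 and 0.19 in the same extracts. C2 and CFB lie end to end and overlap on chromosome 6, at chr6:31897785-31945672 and chr6:31945650-31952084 in GENCODE release 29 on GRCh38, with C4B at chr6:32014795-32035418.

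C3, the centre of the cascade, fell in Aconiti Lateralis Radix Preparata by 0.17 ± 0.05 (adjusted p = 0.00611), a call lost without replicate 2 at 500 µg/mL (-0.14, adjusted p = 0.0544). CFB, factor B, the protease of the alternative route, fell by 0.29 ± 0.04 in Citri Unshius Pericarpium (adjusted p = 1.2e-06), from 107, 105 and 109.7 CPM to 86.9, 85.1 and 90.8 CPM. It fell by 0.25 in Banhasasim-tang, 0.24 in Aconiti Lateralis Radix Preparata and 0.23 in Yijung-tang, where the values went from 109, 112 and 109 CPM to 94.0, 95.7 and 92.0 CPM without overlap. In Yijung-tang the level was already at 95.9, 94.2 and 96.6 CPM at 100 µg/mL. With only the libraries compared in the model, the Yijung-tang call at 500 against 20 µg/mL was lost (-0.22, adjusted p = 0.0625).

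C8A and C8B encode the alpha and beta chains of C8, which inserts into the target membrane, and lie tail to tail at chr1:56854806-56918221 and chr1:56929210-56966140, 10988 bases apart. In Aconiti Lateralis Radix Preparata C8A was at 10.6, 10.8 and 11.6 CPM at 20 µg/mL and 4.78, 5.25 and 5.33 CPM at 500 µg/mL, a fall of 1.11 ± 0.10 (adjusted p = 1.45e-13). In Cimicifugae Rhizoma it was at 11.6, 11.2 and 11.4 CPM and then 5.68, 4.48 and 6.70 CPM, a fall of 1.02 ± 0.10 (adjusted p = 2.8e-12). No library overlapped between doses in either extract. C8A fell by less in Banhasasim-tang, from 10.2, 11.4 and 10.4 to 8.05, 8.09 and 8.18 CPM with a log2 fold change of -0.40 ± 0.09 (adjusted p = 0.000763). In Bupleuri Radix it went from 10.6, 11.1 and 10.1 to 7.95, 7.62 and 9.32 CPM, with a log2 fold change of -0.35 ± 0.09 (adjusted p = 0.00273).

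C8B also fell, by 0.99 ± 0.13 in Aconiti Lateralis Radix Preparata (adjusted p = 5.46e-09), from 3.33, 3.81 and 3.21 CPM to 1.71, 1.76 and 1.73 CPM. In Cimicifugae Rhizoma it fell by 0.78 ± 0.12 (adjusted p = 9.46e-07). Its fall of 0.34 in Banhasasim-tang (adjusted p = 0.0269) was lost without replicate 2 at 500 µg/mL (-0.23, adjusted p = 0.248), without replicate 2 at 20 µg/mL (-0.31, adjusted p = 0.101) and under DESeq2 (adjusted p = 0.078) and with no filter (adjusted p = 0.177). C8G, the gamma chain, of another gene family, did not follow: it rose in Aconiti Lateralis Radix Preparata by 0.65 ± 0.19 (adjusted p = 0.00512), from 1.04, 1.81 and 1.92 CPM to 2.49, 2.48 and 2.64 CPM. That call was lost without replicate 1 at 20 µg/mL (0.44, adjusted p = 0.0774).

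C5, the source of the anaphylatoxin C5a and of C5b, fell in all 6 extracts. It fell by 0.60 ± 0.05 in Aconiti Lateralis Radix Preparata (adjusted p = 3.07e-15), from 151, 144 and 141 CPM to 94.6, 98.0 and 93.3 CPM, and by 0.58 ± 0.05 in Cimicifugae Rhizoma (adjusted p = 1.05e-14), from 169.5, 161.5 and 163.6 CPM to 114, 108 and 109 CPM. In Citri Unshius Pericarpium it fell by 0.26 ± 0.05 (adjusted p = 0.000336), from 173, 165 and 168 CPM to 139.7, 143.9 and 139.4 CPM. These 3 falls held with every single library left out. The smaller falls in Bupleuri Radix (-0.16, adjusted p = 0.0086), Yijung-tang (-0.17, adjusted p = 0.02) and Banhasasim-tang (-0.14, adjusted p = 0.0321) did not. In Bupleuri Radix the call was lost without replicate 3 at 500 µg/mL (-0.10, adjusted p = 0.144).

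In Yijung-tang the C5 call was lost without replicate 1 or 2 at 500 µg/mL (-0.17 and -0.14, adjusted p = 0.0521 and 0.16) and without replicate 1 or 3 at 20 µg/mL (-0.14 and -0.17, adjusted p = 0.183 and 0.0525). In Banhasasim-tang it was lost without replicate 1, 2 or 3 at 500 µg/mL (-0.14, -0.14 and -0.15, adjusted p = 0.0742, 0.0667 and 0.0554) and without replicate 1 or 3 at 20 µg/mL (-0.08 and -0.12, adjusted p = 0.312 and 0.109). There the libraries overlapped, with 171, 140.5 and 160.5 CPM at 20 µg/mL and 143, 142.6 and 143.5 CPM at 500 µg/mL.

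Among the complement regulators, CFI, the factor I protease that cleaves C3b and C4b, had the smallest errors. It fell by 0.45 ± 0.03 in both Cimicifugae Rhizoma and Aconiti Lateralis Radix Preparata (adjusted p = 1.31e-17 and 1.4e-17), by 0.25 in Banhasasim-tang, 0.20 in Citri Unshius Pericarpium and 0.17 in Bupleuri Radix. In Aconiti Lateralis Radix Preparata it went from 155, 153 and 149 CPM through 129, 130.3 and 133 CPM at 100 µg/mL to 111, 113 and 111 CPM. C4BPA, the alpha chain of C4b-binding protein, the cofactor of factor I, fell by 0.62 ± 0.07 there (adjusted p = 1.74e-09), from 16.5, 17.96 and 20.02 CPM to 12.4, 11.9 and 11.2 CPM. It fell by 0.59 in Cimicifugae Rhizoma, 0.41 in Citri Unshius Pericarpium and 0.40 in Banhasasim-tang.

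In Citri Unshius Pericarpium C4BPA went from 22.0, 22.7 and 19.4 CPM to 16.0, 15.9 and 16.3 CPM, with no overlap. The fall of 0.22 in Bupleuri Radix (adjusted p = 0.0145) was lost without replicate 1 or 3 at 500 µg/mL (-0.20 in both, adjusted p = 0.0712 and 0.0745) and without replicate 1 or 2 at 20 µg/mL (-0.21 and -0.20, adjusted p = 0.0655 and 0.0745). C4BPB, the beta chain that carries protein S and whose gene lies 4268 bases upstream of C4BPA, fell by 0.30 ± 0.07 in both Aconiti Lateralis Radix Preparata (adjusted p = 0.000413) and Banhasasim-tang (adjusted p = 0.000899).

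At 100 against 20 µg/mL, 0 members were called in Citri Unshius Pericarpium, Cimicifugae Rhizoma, Bupleuri Radix and Banhasasim-tang by edgeR, where 0.0249%, 1.29%, 0.162% and 0.0124% of all genes were called. DESeq2 called 0, 1, 0 and 0. Without adjustment, 8, 5, 6 and 0 members in the same order had p under 0.05. In Aconiti Lateralis Radix Preparata 12 members fell and 1 (C8G) rose, against 2.57% and 3.11% of all genes. SERPINA5 fell by 0.32 ± 0.04 (adjusted p = 1.1e-08), KNG1 by 0.50 ± 0.09 (adjusted p = 0.000151), C5 by 0.26 ± 0.05 (adjusted p = 0.000124) and CFI by 0.22 ± 0.03 (adjusted p = 6.14e-07). The position of the medium dose on the way from the low to the high dose was taken from mean CPM, not log2 values. Among the 22 members that fell from 20 to 500 µg/mL, it stood between 1.0% (C1S) and 122.0% (A2M) of the way. KNG1 was at 37.8%, C5 at 47.8% and SERPINA5 at 68.0%. Of the 3 that rose, TFPI stood at -1.1%, MASP1 at 6.4% and C8G at 116.0%. Of the 12 falls, those of C4BPA and C8A were lost without replicate 2 or 3 at 20 µg/mL or replicate 1, 2 or 3 at 100 µg/mL (adjusted p = 0.0588 to 0.348 and 0.0511 to 0.131). The fall of PROS1 was lost without replicate 1 at 20 µg/mL or replicate 3 at 100 µg/mL (adjusted p = 0.0577 and 0.156), that of SERPINF2 without replicate 2 at 20 µg/mL (adjusted p = 0.0503), and the rise of C8G without replicate 1 at 20 µg/mL (adjusted p = 0.126).

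In Yijung-tang 3 members fell at 100 µg/mL, SERPINA5 by 0.24, A2M by 0.20 and CFB by 0.20, against 0.534% of all genes that fell. With only the libraries compared in the model, the calls of A2M and CFB were lost (adjusted p = 0.129 and 0.0734). SERPINA5 was at 358, 349 and 356 CPM at 20 µg/mL, 295, 303 and 301 CPM at 100 µg/mL and 324, 344 and 332 CPM at 500 µg/mL. The medium dose was thus the lowest, with no overlap with either of the others. A2M, with 20 and 500 µg/mL overlapping, was also lowest at the medium dose, at 3279, 3282 and 3241 CPM, then 2816, 2822 and 2892 CPM, then 3200, 3047 and 3278 CPM.

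Whether the dose effects of paired extracts differed was tested for the pair that shares each title set. Between Cimicifugae Rhizoma and Citri Unshius Pericarpium 15 of 35 members differed, against 28.2% of all genes; 6 were higher and 9 lower in Cimicifugae Rhizoma, against 13.5% and 14.7%. MASP1 differed by 1.11 ± 0.12 on the log2 scale (adjusted p = 5.22e-10), C8A by -0.90 ± 0.13 (adjusted p = 4.14e-07) and KNG1 by -0.88 ± 0.14 (adjusted p = 3.32e-06). Between Aconiti Lateralis Radix Preparata and Bupleuri Radix 13 differed, against 10.2% of all genes, and 12 of them were lower in Aconiti Lateralis Radix Preparata, against 4.98%. KNG1 differed by -1.10 ± 0.15 (adjusted p = 6.87e-07), C8A by -0.76 ± 0.13 (adjusted p = 3.43e-05) and SERPINF2 by -0.56 ± 0.07 (adjusted p = 6.59e-09). Neither MASP1 nor TFPI was called in that pair.

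Between Banhasasim-tang and Yijung-tang 9 members differed, against 12.1% of all genes. KNG1 differed by -1.15 ± 0.13 (adjusted p = 2e-09), SERPINC1 by -0.57 ± 0.08 (adjusted p = 2.92e-07) and MASP1 by 0.45 ± 0.12 (adjusted p = 0.00735). The SERPINC1 difference was the only one of the 37 in which the member was called in opposite directions in the 2 extracts. The MASP1 difference was lost without Banhasasim-tang replicate 3 at 500 µg/mL (0.37, adjusted p = 0.0532). With the GC trend of each library removed, 14 members differed in this pair.

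**Figure D4:**
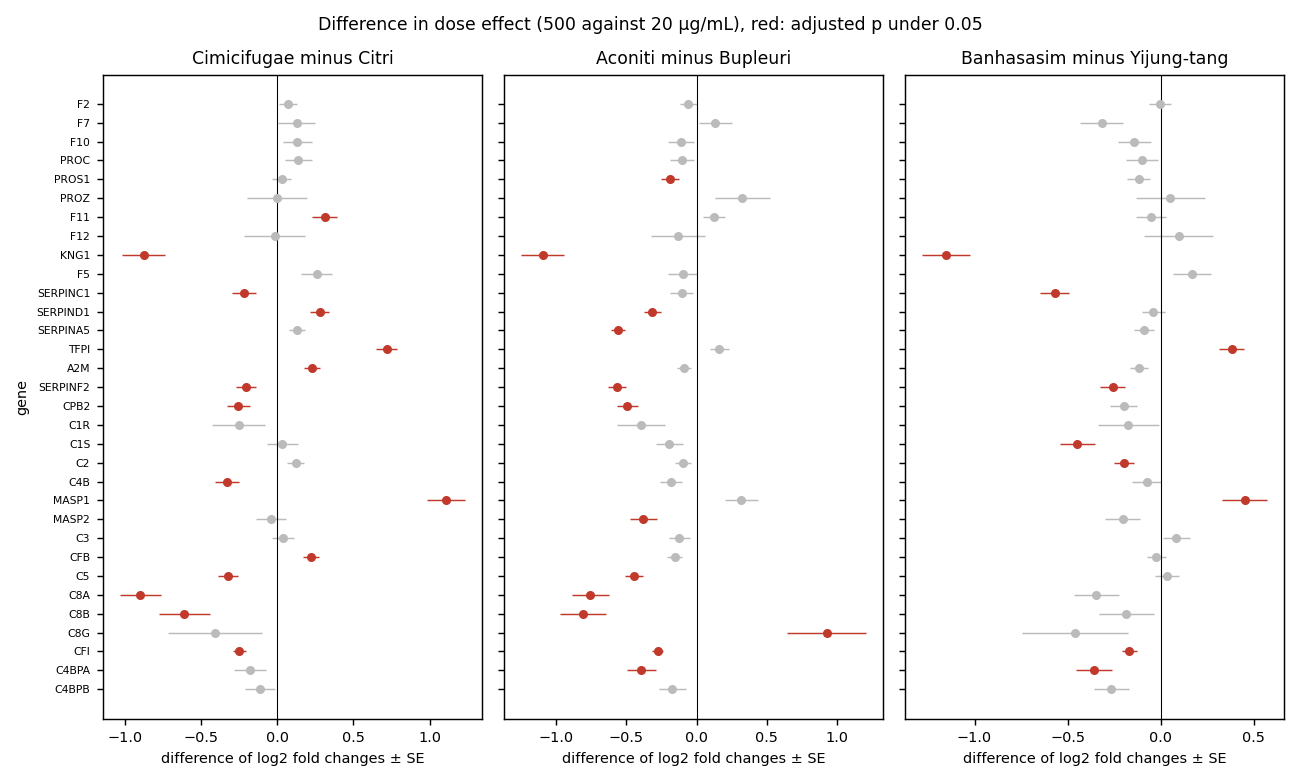
Difference in log2 fold change (500 against 20 µg/mL) between the extracts of each title set for 32 members, with standard errors; red points have an adjusted p under 0.05, and KLKB1, PLG and F13B are left out for their wide errors. KNG1 is red and left of 0 in all 3 panels.

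Against vehicle, the set code and the extract cannot be told apart, because the vehicle libraries carry a code of their own. At 20 µg/mL, 7, 8, 10, 16, 13 and 12 members were called in Citri Unshius Pericarpium, Cimicifugae Rhizoma, Bupleuri Radix, Aconiti Lateralis Radix Preparata, Yijung-tang and Banhasasim-tang, against 19.3%, 19%, 21.9%, 31.2%, 27.2% and 28.4% of all genes. In the same order 6, 7, 7, 15, 11 and 9 were called without vehicle replicate 2, and 3, 3, 4, 10, 3 and 2 with the GC trend removed. The shares of all genes are those of the main fit. None is given for the alternatives, so their counts cannot be set against a background. MASP2 was higher in all 6 extracts, by 0.30 to 0.47 (0.28 to 0.45 without vehicle replicate 2, all called), and by 0.18 to 0.35 with the GC trend removed, where 5 were called. PROS1 was lower in all 6, by log2 values of -0.24 to -0.14 (-0.23 to -0.13 without vehicle replicate 2, where 5 were called), and lay between -0.09 and 0.02 with the GC trend removed, none of them called by edgeR. A2M and C4BPB were lower in all 6, and called in 6 and 5 without vehicle replicate 2 and in 1 and 3 with the GC trend removed. In Citri Unshius Pericarpium the count was 4 without vehicle replicate 1 or without its own replicate 2 at 20 µg/mL, and in Bupleuri Radix 6 without vehicle replicate 1 or 3 or its own replicate 1 at 20 µg/mL. The comparisons share the vehicle libraries.

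At 500 µg/mL against vehicle, 16, 22, 16, 24, 15 and 18 members were called in the same order, against 22.5%, 45.8%, 35.7%, 47.4%, 32.6% and 34.7% of all genes. Without vehicle replicate 2 the counts were 15, 20, 14, 24, 13 and 19, and with the GC trend removed 15, 22, 18, 27, 5 and 18. Here too the shares of all genes are for the main fit only, so a changed count is not a result about the members. The log2 difference of KNG1 was -2.31 in Aconiti Lateralis Radix Preparata, -1.54 in Cimicifugae Rhizoma, -1.19 in Banhasasim-tang, -1.10 in Bupleuri Radix and -0.59 in Citri Unshius Pericarpium, all called. In Yijung-tang it stood at -0.16 (adjusted p = 0.172). Without vehicle replicate 2 these values were -2.28, -1.51, -1.16, -1.07 and -0.56, all called, and -0.13 in Yijung-tang (adjusted p = 0.367). C5 was lower in all 6 extracts, from -0.82 to -0.19 on the log2 scale, and from -0.84 to -0.21 without vehicle replicate 2, called in all 6 both ways. With the GC trend removed the C5 call was lost in Bupleuri Radix (-0.07, adjusted p = 0.214), Yijung-tang (-0.01, adjusted p = 0.873) and Banhasasim-tang (-0.09, adjusted p = 0.106).

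The other genes of these pathways, from lists of 28 coagulation and fibrinolysis genes and 31 complement genes, are given for 500 against 20 µg/mL. Of 23 coagulation genes tested, 12 rose and 5 fell in both Cimicifugae Rhizoma and Aconiti Lateralis Radix Preparata. Of all genes, 19.5% rose and 19.7% fell in the former, and 19.2% rose and 18.1% fell in the latter. FGA, the fibrinogen alpha chain, fell by 1.38 ± 0.03 in Aconiti Lateralis Radix Preparata (adjusted p = 9.73e-35), from 820 ± 20.4 to 314 ± 11.1 CPM. Of 15 other complement genes tested, 2 rose and 4 fell in that extract; CD55, a membrane inhibitor of the C3 convertases, rose by 1.01 ± 0.08, and CPN2, a carboxypeptidase N subunit, fell by 0.53 ± 0.06.

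Of 9 genes of the vitamin K cycle and factor secretion, GGCX, the gamma-carboxylase that modifies the vitamin K-dependent proteins, fell by 0.43 ± 0.04 in Aconiti Lateralis Radix Preparata (adjusted p = 3.36e-14). CALU, of the same list, rose by 0.16 ± 0.03 in that extract (adjusted p = 1e-05). There the 9 genes summed to 1610 to 1649 CPM at 20 µg/mL and 1667 to 1688 CPM at 500 µg/mL. Of 18 hepatocyte transcription factors, 9 fell and 6 rose there, against 18.1% and 19.2% of all genes. In Cimicifugae Rhizoma 9 fell and 4 rose, against 19.7% and 19.5%. NR1H4, the bile acid receptor FXR, fell by 1.83 in Cimicifugae Rhizoma, 1.76 in Aconiti Lateralis Radix Preparata, 0.98 in Bupleuri Radix and 0.70 in Banhasasim-tang. It stood at -0.14 in Citri Unshius Pericarpium (adjusted p = 0.259) and 0.03 in Yijung-tang (adjusted p = 0.841), 2 values chosen after they were seen. FOXA1, a forkhead factor, fell by 0.86 in Aconiti Lateralis Radix Preparata and 0.36 in Banhasasim-tang. NR0B2, of the same list, went the other way in Cimicifugae Rhizoma, with a rise of 1.13 ± 0.06 (adjusted p = 3.85e-21 by edgeR). In Citri Unshius Pericarpium it fell by 0.23 (adjusted p = 0.0389).

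Other markers moved beside these results. The shares of all genes to set beside the counts were 19.5% risen and 19.7% fallen in Cimicifugae Rhizoma. In Aconiti Lateralis Radix Preparata they were 19.2% risen and 18.1% fallen. Of 6 RNA quality genes tested, 3 rose in Cimicifugae Rhizoma and 3 in Aconiti Lateralis Radix Preparata; their summed level was 964 to 1025 CPM at 20 µg/mL and 1259 to 1319 CPM at 500 µg/mL in the first, and 785 to 946 CPM and 1048 to 1197 CPM in the second. Of 12 hepatocyte markers tested, 7 fell and 1 rose in Aconiti Lateralis Radix Preparata and 6 fell and 2 rose in Cimicifugae Rhizoma; the summed level of the list was 43280 to 44990 CPM and then 38710 to 39620 CPM in the former. Of 4 endothelial markers tested, 2 fell in Aconiti Lateralis Radix Preparata, where the 9 genes summed to 4.45 to 4.72 CPM and then 3.23 to 3.42 CPM. Of 2 leukocyte markers tested, 1 rose and 1 fell in both Aconiti Lateralis Radix Preparata and Cimicifugae Rhizoma. Of 4 stellate cell or fibroblast markers tested, ACTA2 fell in every extract except Yijung-tang, by 0.17 in Citri Unshius Pericarpium to 0.50 in Banhasasim-tang. PDGFRB fell by 0.47 in Citri Unshius Pericarpium and rose by 0.50 to 0.61 in the other 4 of these. COL3A1, DCN and LUM, of the same list, had no count in 41, 59 and 54 of the 60 libraries. The 7 genes summed to 64.4 to 68.7 CPM at 20 µg/mL and 54.05 to 56.7 CPM at 500 µg/mL in Aconiti Lateralis Radix Preparata, 68.9 to 72.6 and then 57.03 to 57.4 CPM in Banhasasim-tang, and 70.2 to 72.7 and then 58.4 to 63.7 CPM in Citri Unshius Pericarpium.

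In Banhasasim-tang 2 hepatocyte markers rose and 2 fell, against 8.59% and 6.52% of all genes. The list summed to 39590 to 46530 CPM at 20 µg/mL and 45480 to 46420 CPM at 500 µg/mL. In Citri Unshius Pericarpium 2 fell, against 0.92% of all genes, and the sum went from between 45970 and 47230 CPM to between 42890 and 44320 CPM. The leukocyte list summed to 39.9 to 43.5 CPM and then 49.2 to 49.97 CPM in Banhasasim-tang, and to 43.5 to 43.7 CPM and then 46.1 to 50.02 CPM in Citri Unshius Pericarpium. RNA quality genes summed to 826 to 849.8 CPM and then 888.5 to 914 CPM in the former and to 956 to 972 CPM and then 940.0 to 991.5 CPM in the latter. The part of these lists in the members' changes was not tested.

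In Bojungikgi-tang, with 1 library per dose and no test, the log2 ratio of 500 to 20 µg/mL ran over 35 members from -0.74 (KNG1) to 0.55, with a median of 0.01. C5 was at 171 CPM at 20 µg/mL and 146 CPM at 500 µg/mL, MASP1 at 6.92 and 8.16 CPM, TFPI at 218.5 and 222 CPM and C8A at 11.2 and 11.96 CPM.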

How the data were processed

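Gene-level expected counts of mRNA libraries from HepG2 cells were deposited by the authors. Per the submitters' processing notes, FastQC 0.11.9, Trim Galore 0.6.5, STAR 2.7.3a and RSEM 1.3.3 were used with GRCh38; the annotation release is not given in the sources used here. Of the nonzero values, 24.5% were not whole, and all were rounded. Another 207 value columns matched no sample label and were not used. Gene models came from GENCODE release 29.

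Groups came from the sample titles. The 57 replicated libraries (19 groups) were fitted together in R 4.3.3 with edgeR 4.0.16 (limma 3.58.1): TMM factors of 0.898 to 1.04, the default filter on low counts (16093 genes kept), a quasi-likelihood test and Benjamini-Hochberg adjustment over all genes, called at an adjusted p under 0.05. CPM used TMM-scaled library sizes. Vehicle carried its own set code; the labels give 0.1% DMSO for it while the series' text names another concentration. Wortmannin was not analysed here. Alternatives were median-ratio size factors, other filters, DESeq2 1.42.0, a replicate block, removal of each library's GC trend, only the libraries compared, and leaving out each library. The fits were tested on simulated data.

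The members and lists were chosen with earlier results of these data known. Every member may be named; given in full are, per extract, up to 4 called members with the largest change, a mean of 5 CPM or more and no overlap, and up to 3 per difference between extracts. For the other lists, fold changes are given for genes drawn from up to 2 called genes with the smallest p per list and comparison. Not all of these genes are named. NR1H4 and C4A values beyond that were chosen after they were seen. A gene that this rule would name is not reported here.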

Additional observations from a re-analysis of the deposited data

Results flagged for a closer look

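The dose effect (log2 fold change, 500 against 20 µg/mL) differed between Cimicifugae Rhizoma and Citri Unshius Pericarpium in 15 members, by the test of the difference in edgeR. The difference, Cimicifugae Rhizoma minus Citri Unshius Pericarpium, was negative for C8A by -0.90, KNG1 by -0.88, C8B by -0.61, C4B by -0.33, C5 by -0.32, CPB2 by -0.26, CFI by -0.25, SERPINC1 by -0.22 and SERPINF2 by -0.21. It was positive for CFB by 0.22, A2M by 0.23, SERPIND1 by 0.28, F11 by 0.31, TFPI by 0.72 and MASP1 by 1.11. Leaving out 1 library ended the call for C8B without Cimicifugae Rhizoma 20 µg/mL replicate 2 (adjusted p = 0.0812). The C8B call was also lost with no filter. The call ended for CPB2 without Citri Unshius Pericarpium 500 µg/mL replicate 1 (adjusted p = 0.0554). The difference was no longer called for SERPINC1 without Citri Unshius Pericarpium 500 µg/mL replicate 1 or Citri Unshius Pericarpium 500 µg/mL replicate 2 or Citri Unshius Pericarpium 20 µg/mL replicate 2 or Cimicifugae Rhizoma 20 µg/mL replicate 2 or Cimicifugae Rhizoma 500 µg/mL replicate 3 (adjusted p = 0.0717 to 0.119). Leaving out 1 library ended the call for SERPINF2 without Citri Unshius Pericarpium 20 µg/mL replicate 1 or Cimicifugae Rhizoma 500 µg/mL replicate 1 or Cimicifugae Rhizoma 500 µg/mL replicate 3 (adjusted p = 0.0548 to 0.0599).

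The dose effect (log2 fold change, 500 against 20 µg/mL) differed between Aconiti Lateralis Radix Preparata and Bupleuri Radix in 13 members, by the test of the difference in edgeR. The difference, Aconiti Lateralis Radix Preparata minus Bupleuri Radix, was negative for KNG1 by -1.10, C8B by -0.81, C8A by -0.76, SERPINF2 by -0.56, SERPINA5 by -0.56, CPB2 by -0.49, C5 by -0.44, C4BPA by -0.39, MASP2 by -0.38, SERPIND1 by -0.31, CFI by -0.28 and PROS1 by -0.19. It was positive for C8G by 0.93. The call ended for C4BPA without Aconiti Lateralis Radix Preparata 20 µg/mL replicate 3 (adjusted p = 0.0554). The difference was no longer called for C8G without Aconiti Lateralis Radix Preparata 20 µg/mL replicate 1 or Bupleuri Radix 500 µg/mL replicate 2 or Bupleuri Radix 500 µg/mL replicate 3 or Bupleuri Radix 20 µg/mL replicate 3 (adjusted p = 0.0528 to 0.0977). Leaving out 1 library ended the call for MASP2 without Bupleuri Radix 500 µg/mL replicate 3 (adjusted p = 0.0509). With no filter the calls of C8G and PROS1 were lost, and with only the libraries compared that of PROS1 was. The call ended for PROS1 without Bupleuri Radix 500 µg/mL replicate 1 or Bupleuri Radix 20 µg/mL replicate 1 or Aconiti Lateralis Radix Preparata 500 µg/mL replicate 1 or Aconiti Lateralis Radix Preparata 20 µg/mL replicate 1 or Bupleuri Radix 500 µg/mL replicate 2 or Aconiti Lateralis Radix Preparata 20 µg/mL replicate 2 or Bupleuri Radix 20 µg/mL replicate 3 or Aconiti Lateralis Radix Preparata 500 µg/mL replicate 3 or Aconiti Lateralis Radix Preparata 20 µg/mL replicate 3 (adjusted p = 0.0653 to 0.134).

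The dose effect (log2 fold change, 500 against 20 µg/mL) differed between Banhasasim-tang and Yijung-tang in 9 members, by the test of the difference in edgeR. The difference, Banhasasim-tang minus Yijung-tang, was negative for KNG1 by -1.15, SERPINC1 by -0.57, C1S by -0.45, C4BPA by -0.36, SERPINF2 by -0.26, C2 by -0.20 and CFI by -0.17. It was positive for TFPI by 0.38 and MASP1 by 0.45. The difference was no longer called for C2 without Yijung-tang 20 µg/mL replicate 1 or Banhasasim-tang 500 µg/mL replicate 1 (adjusted p = 0.051 to 0.0556). With no filter, and with only the libraries compared in the model, the calls of C2 and CFI were lost (adjusted p up to 0.124 and 0.159). Leaving out 1 library ended the call for MASP1 without Banhasasim-tang 500 µg/mL replicate 3 (adjusted p = 0.0532).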

How the results depend on the processing

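Of the fold changes described in full, 493 values over the alternatives kept direction and call, 9 lost the call and 0 reversed; counts of called members stayed within 1.5 times in 363 cases and moved further in 33. With no filter, 3 members were called at 20 µg/mL against vehicle in Citri Unshius Pericarpium and 5 in Bupleuri Radix. DESeq2 called 1 at 100 against 20 µg/mL in Cimicifugae Rhizoma and 5 in Yijung-tang. Fitting only the libraries compared gave 1 in each of these and 0 at 500 against 20 µg/mL in Yijung-tang. That fit also ended the calls at 500 against 20 µg/mL of A2M and C2 in Banhasasim-tang (adjusted p = 0.0713 and 0.0689) and SERPINF2 in Bupleuri Radix (adjusted p = 0.0678). With the GC trend removed the counts were 1 at 100 against 20 µg/mL in Cimicifugae Rhizoma, 5 at 500 µg/mL against vehicle in Yijung-tang, 14 between Banhasasim-tang and Yijung-tang, and at 20 µg/mL against vehicle 3, 3, 4, 10, 3 and 2 (Citri Unshius Pericarpium, Cimicifugae Rhizoma, Bupleuri Radix, Aconiti Lateralis Radix Preparata, Yijung-tang, Banhasasim-tang). The cause was not tested. For the alternatives in this section no share of all genes called is given, so the counts stand without a background.

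The labels do not say if same-numbered libraries are paired. Deviations from group means had median correlations of 0.0978, 0.218 and 0.225 between same-numbered libraries in the 3 title sets. Between differently numbered libraries the medians were lower, at -0.0301, -0.121 and -0.144. Deviations cancel out within each group, so these medians are tied to the same-numbered ones and are not separate evidence of pairing. The same-numbered correlations passed 0.1 in 22, 32 and 30 of 45 pairs. The main model has no term for replicate number. With a replicate block, 1 member was called at 100 against 20 µg/mL in Cimicifugae Rhizoma, 6 in Yijung-tang, and 12 at 20 µg/mL against vehicle in Citri Unshius Pericarpium; counts at 500 against 20 µg/mL were 9, 17, 11, 26, 3 and 20 in the order above. The block with the GC trend removed gave 1 and 5 for those 100 µg/mL comparisons, 7 at 500 µg/mL against vehicle in Yijung-tang, 14 between the formulas, and at 20 µg/mL against vehicle 4 in Cimicifugae Rhizoma, 10 in Aconiti Lateralis Radix Preparata, 5 in Yijung-tang and 2 in Banhasasim-tang.

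Leaving out each library gave, at 500 against 20 µg/mL in the same order, 9, 14 to 16, 8 to 11, 24 to 26, 1 to 3 and 15 to 18 called members. At 20 µg/mL against vehicle it gave 4 to 6, 6 to 8, 6 to 8, 14 to 17, 9 to 11 and 9 to 12, and at 500 µg/mL 13 to 16, 20 to 22, 14 to 17, 23 to 25, 12 to 17 and 16 to 19. At 100 against 20 µg/mL it gave 10 to 11 in Aconiti Lateralis Radix Preparata, 3 in Yijung-tang and 0 by edgeR in the other 4. Between extracts it gave 13 to 16, 11 to 14 and 8 to 13. KLKB1, PLG and F13B had the widest standard errors.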
